A study of Homo sapiens with 12 samples.

Results

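Metallothionein genes and MTF1, the gene of the zinc sensor of human cells, were followed in MDA-MB-231 cells, an established human breast adenocarcinoma line, kept with and without glucose and glutamine. The members were the gene rows with the symbols MT2A, MT1E, MT1X, MT1F, MT1G and MTF1, 6 of 63187 genes in the file. The data are RNA-seq of total RNA, in 12 libraries, 3 for each of 4 media. The cells were grown with 10% serum and then held for 36 h in 1 of the media, all with 3% serum. Both glucose (25 mM) and glutamine (4 mM) were present in full medium. Glucose-only medium held 25 mM glucose without glutamine, glutamine-only medium 4 mM glutamine without glucose, and deficient medium neither. All libraries came from 1 cell line, and the labels number the libraries of a medium A, B and C without saying whether they were separate cultures. The p-values therefore measure the spread between these libraries, which may be technical.

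Metallothioneins are small, cysteine-rich proteins that bind zinc and copper in the cytosol and release them again, and they are induced by metals, glucocorticoids and oxidants. MTF1 is a zinc-finger transcription factor that binds DNA when zinc is plentiful. It binds short metal response elements (MREs) in the promoters of metallothionein genes and of SLC30A1, the gene of the zinc exporter of the plasma membrane. Zinc exporters of the SLC30 family and importers of the SLC39 family set how much zinc reaches the cytosol.

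The libraries held 875033 to 1473587 reads assigned to genes, and 1 read corresponded to a normalized count (reads divided by the size factor of the library) of 0.661 to 1.30. On average 55.4% of the reads of full medium fell in protein-coding genes, against 47.3% for deficient, 44.4% for glucose-only and 51.1% for glutamine-only medium, and 9.54%, 16%, 12.2% and 13.9% in mitochondrial ribosomal RNA. Of 5 markers of basal or mesenchymal breast lines 1 stayed under 10, and VIM was the highest, at up to 1047. In no library did any of 5 fibroblast, 5 blood or 4 adipocyte markers reach 10. Of 7 luminal epithelial markers 4 stayed under 10, and KRT19 was the highest, at up to 164. Of 4 endothelial markers 2 stayed under 10, and PECAM1 was the highest, at up to 19.7.

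The promoters of MT2A and MT1X are shown because these genes were high in the same medium, that of SLC30A1 because it is a known MTF1 target, and that of MTF1 itself for comparison. Each sequence is the 250 bases before the start of the gene in RefSeq (build GRCh38.p14), 5′ to 3′ on the strand of the gene, with matches to the MRE core in capitals. MT2A lies at chr16:56608334-56608583 and MT1X at chr16:56682220-56682469, both on the plus strand. MTF1 lies at chr1:37859593-37859842 and SLC30A1 at chr1:211579162-211579411, both on the minus strand.
MT2A: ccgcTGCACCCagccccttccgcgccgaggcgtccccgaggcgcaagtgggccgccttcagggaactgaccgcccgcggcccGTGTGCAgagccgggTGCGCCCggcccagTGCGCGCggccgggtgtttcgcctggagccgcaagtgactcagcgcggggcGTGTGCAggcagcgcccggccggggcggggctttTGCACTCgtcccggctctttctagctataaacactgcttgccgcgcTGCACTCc
MT1X: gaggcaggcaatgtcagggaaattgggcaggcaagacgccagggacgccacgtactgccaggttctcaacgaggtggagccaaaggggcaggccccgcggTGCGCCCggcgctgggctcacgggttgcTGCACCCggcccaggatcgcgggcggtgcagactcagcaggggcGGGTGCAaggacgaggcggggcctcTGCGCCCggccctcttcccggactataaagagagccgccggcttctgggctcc
SLC30A1: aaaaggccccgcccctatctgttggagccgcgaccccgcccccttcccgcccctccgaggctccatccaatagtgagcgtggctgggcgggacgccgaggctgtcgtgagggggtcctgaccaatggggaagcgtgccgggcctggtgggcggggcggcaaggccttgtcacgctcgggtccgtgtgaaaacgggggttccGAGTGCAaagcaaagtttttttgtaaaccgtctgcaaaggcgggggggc
MTF1: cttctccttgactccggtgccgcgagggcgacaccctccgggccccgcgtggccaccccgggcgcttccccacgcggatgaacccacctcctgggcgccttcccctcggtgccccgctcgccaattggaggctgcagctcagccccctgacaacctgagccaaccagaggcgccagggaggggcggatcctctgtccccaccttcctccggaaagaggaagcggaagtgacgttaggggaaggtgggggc
The core was searched as TGCACNC and TGCGCNC on both strands. MT2A held 7 matches, MT1X 4, SLC30A1 1 and MTF1 0. Of 35116 human promoters of the same length in the table, 24.8% held at least 1 match, 0.370% at least 4 and 0.120% at least 5. The closest match to the start of MT2A ended 2 bases before it, and that of MT1X ended 47 bases before it. A TATA box (TATAAA, both strands), found in 10.7% of the promoters, stood 29 to 24 bases before the start of MT2A and 30 to 25 bases before that of MT1X, and in neither of the other two.

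Other elements that bind stress factors were searched in the same way. MT2A, MT1X and SLC30A1 each held 1 antioxidant element (TGACNNNGC, 10.9% of promoters), and MTF1 held 0. The glucocorticoid element (ACANNNTGT), present in 4.61% of promoters, had 0 matches within these 250 bases in all 4. Bases farther from the starts were not searched, so an element there would be missed. MT1X held 1 hypoxia element (ACGTG, 18.5% of promoters). The GC box (GGGCGG, 42.6% of promoters) matched 6 times in SLC30A1, 2 times each in MT2A and MT1X and 1 time in MTF1. In MT1X the MRE core that starts 78 bases before the gene overlapped a GC box that ends 77 bases before it, and the other MRE cores shown overlapped none of the other motifs. Laid side by side without gaps, the MT2A and MT1X promoters shared 32.4% of their bases. A match describes these letters only. MT1E, MT1F and MT1G were not in the promoter table.

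**Figure D1:**
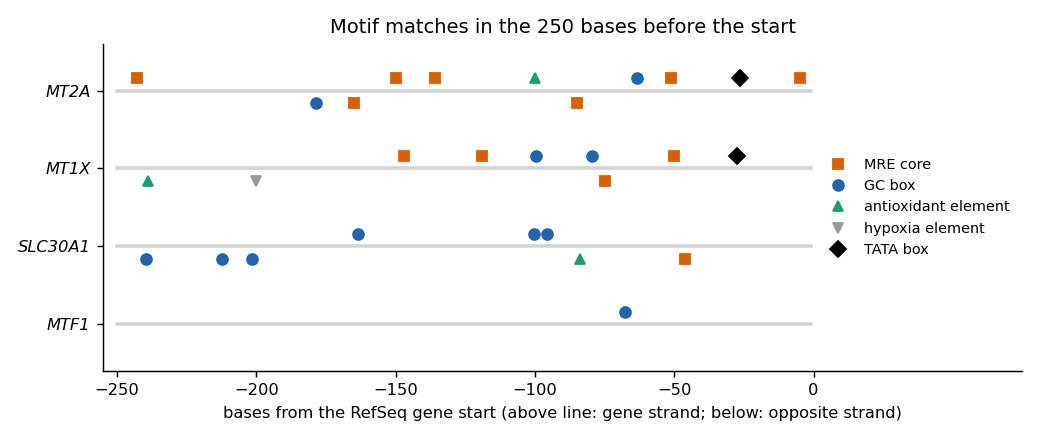
Positions of motif matches in the 250 bases before the start of MT2A, MT1X, SLC30A1 and MTF1. The horizontal axis is the distance in bases from the start, marks above a line are on the strand of the gene and marks below on the opposite strand. MRE cores (squares) number 7 in MT2A, 4 in MT1X, 1 in SLC30A1 and 0 in MTF1.

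The 3 metallothionein genes with enough reads to test, MT2A, MT1E and MT1X, were all highest in the deficient medium, where every one of the 3 libraries lay above all 9 libraries of the other media. Of the 9270 genes tested, 16.7% were separated in the same way. Against full medium MT1X was 2.70-fold higher, MT1E 1.63-fold and MT2A 1.61-fold. MTF1 was 1.61-fold higher. In the media with 1 nutrient all 3 metallothionein genes were lower than in deficient medium. These differences are on the scale of the authors' size factors, and with equal totals 1 of the 4 calls against full medium was left, that of MT1X.

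MT2A (ENSG00000125148, chromosome 16, 56608584 to 56609497) encodes the most widely expressed human metallothionein. It was the most abundant member on every scale. Its normalized counts in the deficient libraries A, B and C were 850.0, 957.5 and 1084. They were 446.9, 475.7 and 531.5 in glucose-only, 479.0, 507.5 and 563.9 in glutamine-only, and 523.0, 658.0 and 615.5 in full medium. The lowest deficient library stood above the highest library of the other media, and the other 3 media overlapped one another. The means were 963.8 ± 117 in deficient, 484.7 ± 43.0 in glucose-only, 516.8 ± 43.2 in glutamine-only and 598.8 ± 69.0 in full medium (SD, n = 3).

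MT1E (ENSG00000169715, chromosome 16, 56625781 to 56627112), a member of the MT1 group of the same cluster, followed MT2A in abundance. Its normalized counts were 205.7, 227.0 and 261.7 in deficient medium and 122.9, 118.4 and 147.0 in glucose-only. In glutamine-only they were 148.8, 176.2 and 172.4, and in full medium 134.9, 139.1 and 148.6. The deficient libraries were again above all others. Unlike MT2A, MT1E was next highest in glutamine-only medium, whose lowest library (148.8) lay just above the highest full library (148.6), and 17.8% of all genes tested had glutamine-only libraries above all full libraries. The means were 231.4 ± 28.3, 129.4 ± 15.4, 165.8 ± 14.8 and 140.9 ± 7.03 in deficient, glucose-only, glutamine-only and full medium (SD, n = 3).

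MT1X (ENSG00000187193, chromosome 16, 56682470 to 56684196), at the far end of the cluster from MT2A, was read less often. Its normalized counts were 32.5, 47.1 and 47.4 in deficient medium and 10.8, 12.6 and 9.41 in glucose-only. In glutamine-only they were 12.6, 21.2 and 15.8, and in full medium 10.6, 19.7 and 15.6. The deficient libraries stood apart from all 9 others, and the highest glucose-only library (12.57) lay just below the lowest glutamine-only library (12.63). The means were 42.3 ± 8.48, 10.9 ± 1.59, 16.6 ± 4.32 and 15.3 ± 4.59 (SD, n = 3), and the gene had 261 reads over the 12 libraries, so that its values are less precise than the 7944 reads of MT2A allow.

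MTF1 (ENSG00000188786, chromosome 1, 37809574 to 37859592) had 302 reads over the 12 libraries. Its normalized counts were 24.7, 37.4 and 41.2 in deficient medium and 25.3, 13.6 and 16.5 in glucose-only. They were 20.7, 25.0 and 23.3 in glutamine-only, and 23.8, 19.7 and 18.3 in full medium. Deficient libraries B and C were the highest, whereas deficient library A lay within the range of the glucose-only and glutamine-only libraries, so the deficient medium was clear of overlap with full medium alone, as it was, in the same direction, for 29.1% of all genes tested. The means were 34.4 ± 8.61, 18.5 ± 6.09, 23.0 ± 2.16 and 20.6 ± 2.83 (SD, n = 3).

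MT1F (ENSG00000198417, chromosome 16, 56657959 to 56659303) and MT1G (ENSG00000125144, chromosome 16, 56666730 to 56668065) were close to the limit of detection. MT1F had 15 reads in 7 of the 12 libraries, with 0 to 4 in each, and MT1G had 5 reads in 4 libraries, with 0 to 2 in each. Neither reached a normalized count of 10 in any library, and neither was tested. MT1G was at 0 in all 3 deficient libraries, where a count of 0 allows up to 3 reads (counting error only).

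**Figure D2:**
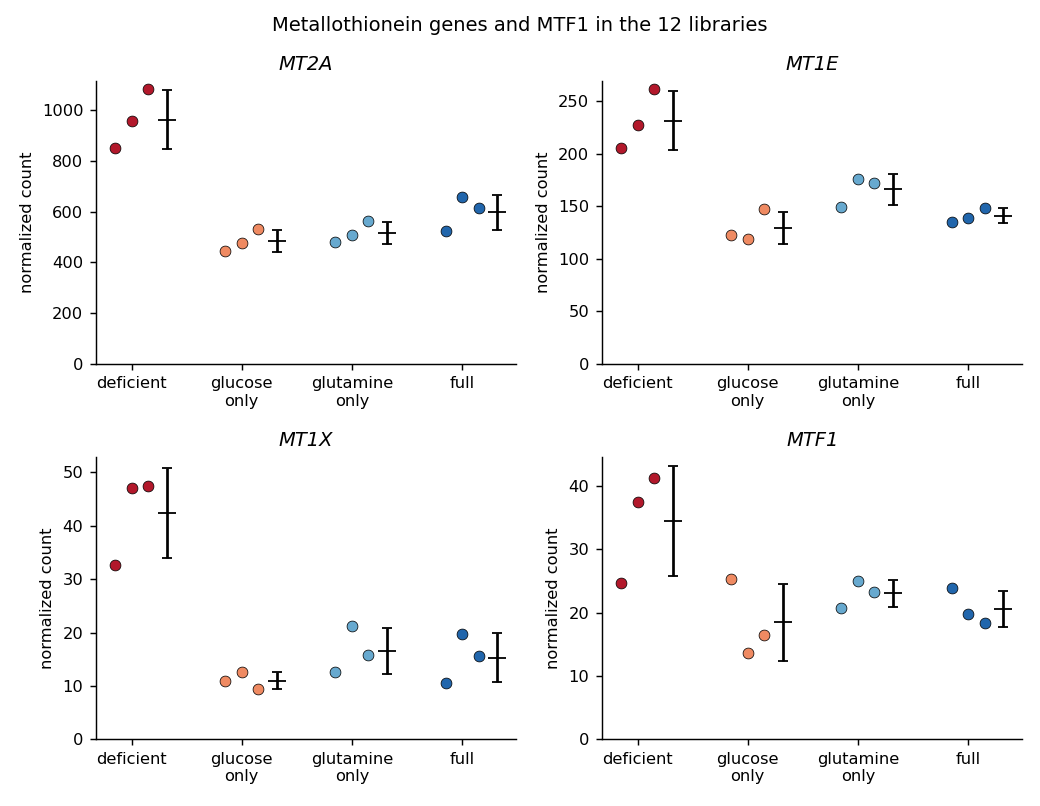
Normalized counts of MT2A, MT1E, MT1X and MTF1 in the 12 libraries. Points are libraries A, B and C from left to right within a medium, and bars are the mean and SD of 3 libraries. MT2A lies between 850.0 and 1084 in deficient medium and at or under 658.0 elsewhere, and deficient library A of MTF1 (24.7) falls below glucose-only library A (25.3).

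Levels of different genes were compared per kilobase of exon (GENCODE release 29). In full medium the normalized counts per kilobase were 461 ± 53.1 for MT2A, 134 ± 6.68 for MT1E, 8.63 ± 2.59 for MT1X and 2.57 ± 0.353 for MTF1 (SD, n = 3), and the order was the same in the other 3 media. In deficient medium they were 742 ± 90.2, 220 ± 26.9, 23.9 ± 4.78 and 4.29 ± 1.07. MT2A took 71.8 to 80.2% of all reads of the 5 metallothionein genes, MT1E 17 to 24.9% and MT1X 1.37 to 3.82%.

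Paralogous metallothionein genes can share reads, and how the authors assigned such reads is not given in the sources used here. Of all stretches of 50 bases in the GENCODE transcripts of MT2A, 3.02% also occurred in another gene. The share was 7.10% for MT1E, 1.22% for MT1F, 16.5% for MT1G and 18.3% for MT1X. Among stretches of 100 bases the share was 11.3% for MT1X, all with the transcript of 1 unnamed noncoding gene that is listed at 0 in every library, and 0 for the other 5. The split between MT1X and its relatives is therefore uncertain.

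How reads were split among the 5 metallothionein genes does not change their sum, which lacks any shared reads dropped or assigned to other genes. It was 1239 ± 153 normalized counts in deficient, 627.2 ± 54.3 in glucose-only, 700.1 ± 56.6 in glutamine-only and 757.4 ± 78.8 in full medium (SD, n = 3), with no deficient library below 1088 and no other library above 820.6. As a share of all reads the order of the means was the same, but deficient and full medium were not apart. Per 10000 reads the sum was 8.98, 9.13 and 12.2 in deficient and 7.08, 8.29 and 9.02 in full medium, which overlap. It was 5.53, 5.86 and 5.90 in glucose-only and 5.99, 6.92 and 7.92 in glutamine-only medium. Counted per 10000 reads of protein-coding genes, the deficient libraries (19, 21.3 and 23.6) were again above every other library (at most 15.9). In bulk RNA, fewer cells with a transcript and less of it per cell cannot be told apart.

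**Figure D3:**
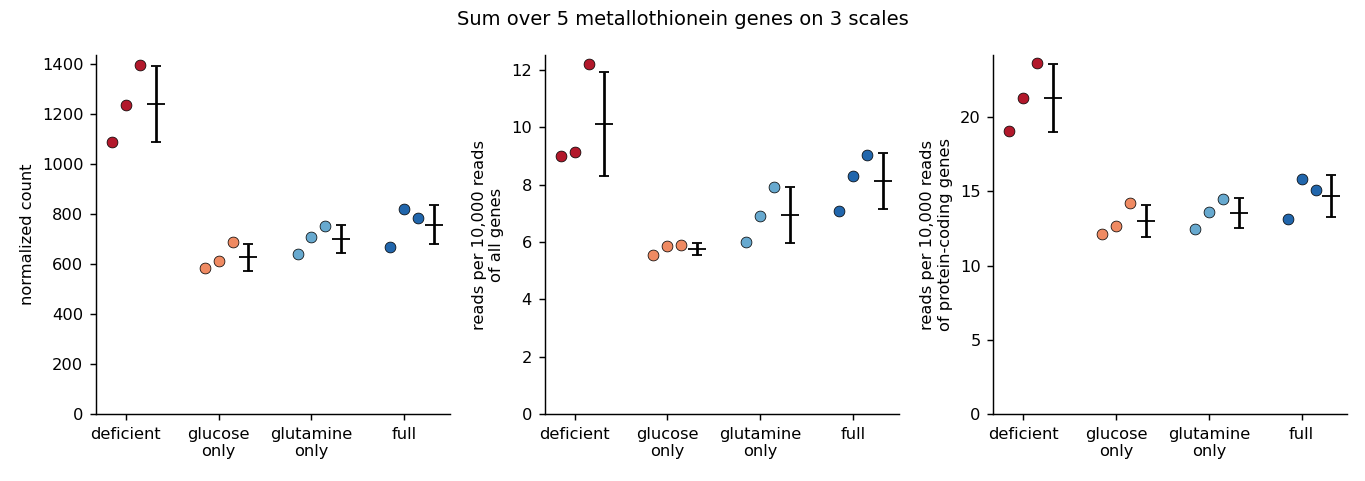
Sum over MT2A, MT1E, MT1X, MT1F and MT1G in each library on 3 scales, normalized counts, reads per 10000 reads of all genes and reads per 10000 reads of protein-coding genes. Points are libraries A, B and C and bars are the mean and SD of 3 libraries. Deficient and full libraries overlap on the middle scale (8.98 against 9.02) and are apart on the other two.

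The loss of both nutrients was tested by comparing deficient with full medium, with limma on log2(normalized count + 1). All 4 tested members were higher. The log2 change was 1.43 for MT1X (SE 0.28, adjusted p = 8.35e-05), 0.71 for MT1E (SE 0.11, adjusted p = 7.72e-06), 0.69 for MT2A (SE 0.11, adjusted p = 5.60e-06) and 0.69 for MTF1 (SE 0.25, adjusted p = 0.0216). Many genes differed between these media: 26.3% of the 9270 genes tested were called higher and 25.5% lower at an adjusted p under 0.05. The calls depended on the scale, because with libraries set to equal totals the median change of all genes moved by -0.39, and MT2A (0.28, adjusted p = 0.0557), MT1E (0.31, adjusted p = 0.0654) and MTF1 (0.30, adjusted p = 0.337) were no longer called, while MT1X was. The call of MTF1 was also lost without deficient library B (adjusted p = 0.0733), deficient C (0.112), full B (0.056) or full C (0.0721), with log2 changes of 0.55 to 0.66.

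Each nutrient alone was then set against the deficient medium. In glucose-only medium all 4 tested members were lower, MT1X by the most. Its log2 change was -1.85 (SE 0.28, adjusted p = 3.53e-06), against -0.99 for MT2A (SE 0.11, adjusted p = 2.34e-08), -0.83 for MT1E (SE 0.11, adjusted p = 9.94e-07) and -0.88 for MTF1 (SE 0.25, adjusted p = 0.00529). Of all genes tested, 23.2% were lower and 20.1% higher there. In glutamine-only medium 3 of the 4 were lower, with log2 changes of -1.31 for MT1X (SE 0.28, adjusted p = 0.000372), -0.89 for MT2A (SE 0.11, adjusted p = 1.62e-07) and -0.48 for MT1E (SE 0.11, adjusted p = 0.00145), beside 21.6% of all genes lower and 19.9% higher. MTF1 stood at -0.53 (SE 0.25, adjusted p = 0.0869), and passed without deficient library A (-0.75, adjusted p = 0.0277) and with edgeR on recovered reads (-0.61, adjusted p = 0.0297). The call of MT1E in glutamine-only medium was lost with equal totals (-0.19, adjusted p = 0.286) and with quantile normalization (-0.27, adjusted p = 0.0582).

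Against full medium, the absence of 1 nutrient went with small differences on the scale of the authors' size factors. In glucose-only medium 1 of the 4 tested members was called, MT2A, which was lower with a log2 change of -0.30 (SE 0.11, adjusted p = 0.0439), where 13.5% of all genes were lower and 9.44% higher. This call was lost with edgeR (adjusted p = 0.0589), DESeq2 (adjusted p = 0.16), 5 other settings and 5 of the 12 omissions of a library. The MT2A normalized counts of the groups overlapped. With equal totals the MT2A change was larger and was called (-0.52, adjusted p = 0.00152), and a replicate block kept the call (adjusted p = 0.0146). MT1X (-0.42, adjusted p = 0.293), MT1E (-0.13, adjusted p = 0.464) and MTF1 (-0.19, adjusted p = 0.635) did not pass. In glutamine-only medium 0 of the 4 passed with limma, 0 had an unadjusted p under 0.05, and 0 passed with edgeR or DESeq2. The log2 changes were -0.21 for MT2A, 0.23 for MT1E, 0.12 for MT1X and 0.16 for MTF1, where 10.8% of all genes were higher and 11.6% lower.

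Glucose-only was also compared directly with glutamine-only medium. MT1E was lower with glucose alone, with a log2 change of -0.36 (SE 0.11, adjusted p = 0.035), and its values in these media did not overlap. It was the only 1 of the 4 tested members to pass, beside 8.26% of all genes lower and 5.05% higher. MT1X values did not overlap either, at a log2 change of -0.54 that did not pass (SE 0.28, adjusted p = 0.224). Of all genes tested, 16.1% had every glucose-only library below every glutamine-only library. MT2A differed by -0.09 (SE 0.11, adjusted p = 0.646). The MT1E call was lost with DESeq2 (adjusted p = 0.206), without a filter on low values (adjusted p = 0.139), with quantile normalization (adjusted p = 0.0788), with a constant prior variance (adjusted p = 0.153), and without glucose-only library A or B or glutamine-only library B or C.

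**Figure D4:**
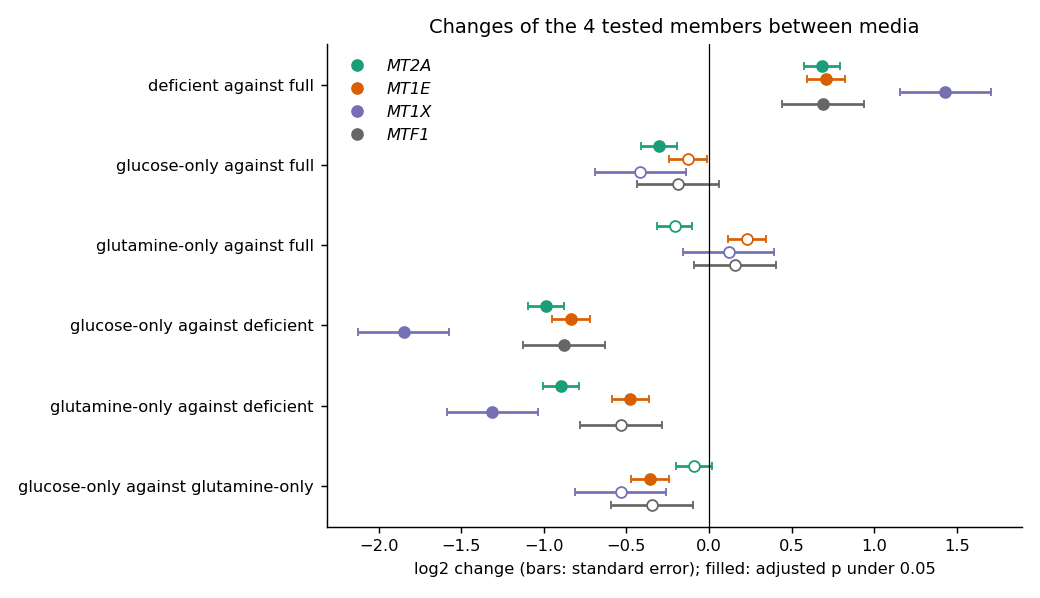
Log2 changes of MT2A, MT1E, MT1X and MTF1 in the 6 comparisons between media. The horizontal axis is the log2 change, bars are the standard error, and filled points have an adjusted p under 0.05. All 4 genes lie to the right in deficient against full and to the left in glucose-only against deficient medium, MT1X farthest (1.43 and -1.85).

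The differences made by the 2 nutrients did not add up on the log2 scale. The interaction term (the difference of full from glutamine-only medium less that of glucose-only from deficient medium) asks whether the difference made by glucose depended on glutamine. It was above 0 for MT1X (1.73, SE 0.39, adjusted p = 0.00137), MT2A (1.20, SE 0.15, adjusted p = 8.97e-07) and MT1E (0.60, SE 0.16, adjusted p = 0.00608), which is 3 of the 4 tested members. Of all genes, 15.5% had a called interaction above 0. For MTF1 it was 0.72 (SE 0.35, adjusted p = 0.129), and it passed without glucose-only library A (0.96, adjusted p = 0.0453). The MT1E interaction was not called with quantile normalization (0.28, adjusted p = 0.201), DESeq2 (0.58, adjusted p = 0.0549) or a constant prior variance (adjusted p = 0.054).

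Few reads were assigned to the other metallothionein genes of the genome. Of 16 others listed, MT1A was tested and 15 stayed under 10 in every library, MT1M with 10 reads, MT1P3 with 2, and MT3 and MT1JP with 1 each, while the other 11 were listed at 0. A 0 in this file need not mean that a gene is silent, since HSF1 and SLC39A7, which most cells express, are also listed at 0 in all 12 libraries. MT1A passed the filter through its 3 deficient libraries alone, at 13, 10.9 and 19.4 normalized counts, so it had to be high there. It held 91 reads over the 12 libraries, and its other libraries lay between 0 and 9.17.

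Zinc exporters were described from a list of 11 genes, 6 of which were tested. In deficient against full medium 1 rose, 3 fell and 2 did not pass, beside 26.3% of all genes called higher and 25.5% lower. The median log2 change was -0.42, beside 0.01 for all genes. With equal totals 0 rose and 5 fell, where 23.6% of all called genes were higher. SLC30A1, the plasma membrane exporter and MTF1 target whose promoter is shown above, had normalized counts of 58.6, 47.1 and 62.9 in deficient, 26.5, 48.2 and 27.0 in glucose-only, 34.3, 49.1 and 46.6 in glutamine-only and 38.3, 33.8 and 33.9 in full medium. It was the 1 exporter that rose (0.64, SE 0.20, adjusted p = 0.00902), and its deficient libraries lay above the full libraries but overlapped those of both single-nutrient media. Deficient libraries lay above all full libraries for 29.1% of all genes tested. With equal totals the SLC30A1 change was 0.25 (adjusted p = 0.349). TMEM163, a zinc efflux protein, fell by 2.33 on the log2 scale (adjusted p = 1.46e-10), SLC30A9, a mitochondrial zinc transporter, fell by 1.09 (adjusted p = 3.85e-06) and SLC30A6, which forms a Golgi transporter with SLC30A5, fell by 0.63 (adjusted p = 0.0172). Against full medium 0 of the 6 passed with limma in glucose-only medium (1 at an unadjusted p under 0.05, 0 with edgeR and DESeq2) and 0 in glutamine-only medium (1 unadjusted, 1 with edgeR, 0 with DESeq2).

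Of 14 zinc importers, 7 were tested. In deficient against full medium 3 rose, 1 fell and 3 did not pass, beside 26.3% of all genes called higher and 25.5% lower. The median log2 change was 0.43. With equal totals 1 rose and 3 fell, where 23.6% of all called genes were higher. SLC39A14, which imports zinc and non-transferrin iron, was at 145.8 ± 11.9 in deficient, 70.2 ± 11 in glucose-only, 129.2 ± 18.5 in glutamine-only and 45.5 ± 7.19 in full medium (SD, n = 3). It rose in all 3 media against full, on the log2 scale by 1.67 in deficient (adjusted p = 8.74e-11), 1.49 in glutamine-only (adjusted p = 4.05e-09) and 0.61 in glucose-only medium (adjusted p = 0.00214), although the glucose-only change was not called with equal totals (0.40, adjusted p = 0.0665). SLC39A6, also an importer of the plasma membrane, rose by 0.64 in deficient medium (adjusted p = 0.00463) and SLC39A13, an importer of the secretory pathway, by 0.43 (adjusted p = 0.042), and neither was called with equal totals (adjusted p = 0.297 and 0.877). SLC39A8 fell by 0.78 (adjusted p = 0.0247). SLC39A10, an importer that MTF1 is known to repress, had a log2 change of -0.15 in deficient (adjusted p = 0.423; -0.54 and 0.00914 with equal totals), and fell by 0.44 in glucose-only (adjusted p = 0.0294) and by 0.55 in glutamine-only medium (adjusted p = 0.00691).

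**Figure D5:**
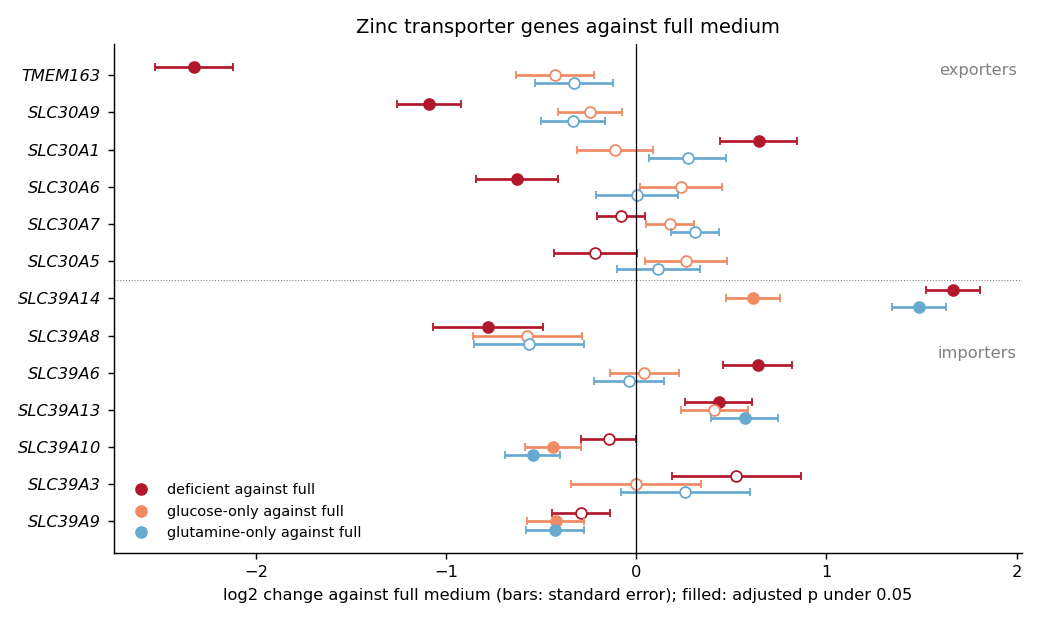
Log2 changes of the tested zinc exporter and importer genes against full medium in deficient, glucose-only and glutamine-only medium. Bars are standard errors and filled points have an adjusted p under 0.05. SLC30A1 is the 1 exporter to the right of 0 with a filled point (0.64), and TMEM163 lies farthest left (-2.33).

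Genes reported elsewhere as MTF1 targets, other than metallothioneins, did not move 1 way. Among them SLC39A10 is known to be repressed by MTF1, so the counts below mix expected directions. Of 11 listed, 7 were tested, and in deficient against full medium 2 rose, 2 fell and 3 did not pass, with a median of 0.08. Of all genes, 26.3% were called higher and 25.5% lower in this comparison, so the split was near that of all genes. GCLC, the catalytic subunit of glutathione synthesis, rose by 1.64 on the log2 scale (adjusted p = 2.67e-08), NDRG1 fell by 1.14 (adjusted p = 4.49e-09) and CSRP1 fell by 0.75 (adjusted p = 0.00015). With equal totals 1 rose and 3 fell, where 23.6% of all called genes were higher. NDRG1, a gene known to respond to hypoxia and stress, was lower by 2.17 in glucose-only medium as well, and stood at 0.09 in glutamine-only (adjusted p = 0.652).

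Possible regulators of metallothionein transcription, not all of them factors that bind the promoters, were counted as a list of 12, MTF1 among them. Of these, 11 were tested. In deficient against full medium 6 rose, MTF1 among them, and 1 fell, beside 26.3% of all genes called higher and 25.5% lower. The median was 0.36. With equal totals 2 rose and 4 fell, where 23.6% of all called genes were higher. NFE2L2, the antioxidant response factor, rose by 0.99 on the log2 scale (adjusted p = 1.06e-07), NR3C1, the glucocorticoid receptor, by 0.74 (adjusted p = 3.57e-06) and MTF2 by 0.86 (adjusted p = 0.00766), while USF1 fell by 0.97 (adjusted p = 0.00708). Against full medium 0 of the 11 passed with limma in glucose-only medium (0 at an unadjusted p under 0.05, 0 with edgeR or DESeq2) and 0 in glutamine-only medium (2 lower unadjusted, 2 with edgeR, 0 with DESeq2).

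Genes that also respond to metals or oxidants, such as HMOX1 (haem oxygenase), were higher in deficient than in full medium. Of 18 listed, 15 were tested. All 15 rose in deficient against full medium, where 26.3% of all genes were called higher, and all 15 rose with equal totals too. This count is partly set by the filter: OSGIN1 and SQSTM1 had fewer than 3 libraries at 10 or more outside the deficient medium, and HMOX1 and HSPA6 had fewer than 3 in glucose-only and full medium together, so these 4 passed through the media where they were high. HMOX1 rose by 6.41 on the log2 scale (adjusted p = 8.87e-13), and its normalized counts were 272.8 ± 33.7 in deficient, 34.1 ± 3.58 in glutamine-only, 2.70 ± 3.81 in glucose-only and 2.42 ± 1.38 in full medium (SD, n = 3). The heat shock genes HSPA6 and DNAJB1 rose by 9.64 and 5.62. In glutamine-only medium 10 of the 15 rose against full, HMOX1 by 3.45 (adjusted p = 8.56e-07), whereas 0 of the 4 tested members were called there. Of all genes, 10.8% were higher there. Against deficient medium 1 of the 15 was higher and 14 were lower in glucose-only medium, beside 20.1% and 23.2% of all genes. In glutamine-only medium 1 was higher and 13 were lower, beside 19.9% and 21.6%. These counts too are partly set by the filter.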

How the data were processed

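Total RNA libraries from 12 samples of MDA-MB-231 were analysed, 3 per medium. The deposited values are gene-level signal, reads per gene divided by a size factor of the library, as the authors computed them. Per the submitters' processing notes FastQC, HISAT2, Subread and DESeq2 were used with build GRCh38.p14, and versions, annotation release and strand setting are not given in the sources used here. The value of 1 read could be found for each library, and 100% of values came out as whole reads within 0.01 reads. These recovered reads served for the tests on counts and for totals. No column of per-sample values was left unused.

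The filter kept the 9270 genes that reached 10 normalized counts in 3 or more of the 12 libraries. One limma-trend model (limma 3.58.1, R 4.3.3) used log2(normalized count + 1), that is a pseudocount of 1, with a mean per medium, and gave 6 comparisons and the interaction. Tests are two-sided, and adjusted p is Benjamini-Hochberg over the 9270 genes, with a threshold of 0.05. Folds are 2 to the power of the log2 change, which understates changes of low genes. Alternatives were a pseudocount of 0.5 or 8, scaling to equal totals, quantile normalization or size factors from protein-coding genes, no filter or a mean of 100 or more, a replicate block, fits on only the 2 compared media, a constant prior variance, an adjusted p under 0.01, omission of each library in turn, and edgeR 4.0.16 and DESeq2 1.42.0 on the recovered reads. The procedure was tested on simulated data. The members and lists were chosen with earlier results of these data known. The text names all members, up to 4 genes of each list with the largest change against full medium, SLC30A1, SLC39A10 and HMOX1, the 5 genes most like MT2A and MTF1, and up to 4 neighbours of each locus. One gene of a list that this rule takes is not reported here. Promoters are from RefSeq, and transcripts and exon lengths from GENCODE release 29.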

Additional observations from a re-analysis of the deposited data

Results flagged for a closer look

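For 3 metallothionein genes the effect of glucose differed with and without glutamine, by the interaction term of the limma model over 12 libraries (Benjamini-Hochberg adjustment). The difference of the log2 changes was 1.20 for MT2A (adjusted p = 8.97e-07), 1.73 for MT1X (adjusted p = 0.00137) and 0.60 for MT1E (adjusted p = 0.00608). For MT2A, glucose-only stood at -0.99 against deficient medium, and glutamine-only at -0.21 against full medium. Glucose thus went with lower MT2A without glutamine and, by a difference that was not called, with higher MT2A beside glutamine. MTF1 had an interaction of 0.72 that did not pass (adjusted p = 0.129).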

How the results depend on the processing

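With libraries set to equal totals 1 member was called in deficient against full medium in place of 4, and the mean metallothionein sum in full medium was 886.08 in place of 757.4. The split of calls moved too: of all called genes the share higher was 50.8% and with equal totals 23.6% in deficient against full, 41.2% and 15.5% in glucose-only against full, 48.2% and 31.6% in glutamine-only against full, 46.4% and 63.5% in glucose-only against deficient, 48% and 75% in glutamine-only against deficient, and 37.9% and 21.3% in glucose-only against glutamine-only. For the interaction it was 58.5%, and 45.7% with quantile normalization. The members called in glucose-only against full medium went from 1 to 0 without a filter, with quantile normalization, protein-coding size factors, a constant prior variance, edgeR, DESeq2 or an adjusted p under 0.01, and ranged from 0 to 1 when each library was left out. Those in glucose-only against glutamine-only medium went from 1 to 0 without a filter, with quantile normalization, a constant prior variance, DESeq2 or an adjusted p under 0.01, and ranged from 0 to 1 when each library was left out. Requiring a mean of at least 100 left MT2A and MT1E, so 2 members were called in deficient against full and 2 in glucose-only against deficient medium. With that filter fewer genes were tested, and the counts of all genes called were 903 (from 4804) in deficient against full, 615 (from 2124) in glucose-only against full, 624 (from 2083) in glutamine-only against full, 776 (from 4008) and 777 (from 3844) in glucose-only and glutamine-only against deficient, 486 (from 1234) in glucose-only against glutamine-only and 632 (from 2458) for the interaction. A constant prior variance gave 817 in glucose-only against glutamine-only. DESeq2 gave 1255 in glucose-only against full, 604 in glucose-only against glutamine-only and 1495 for the interaction. At an adjusted p under 0.01 the counts were 1245 and 1276 in glucose-only and glutamine-only against full, 656 in glucose-only against glutamine-only and 1496 for the interaction. For the other settings the cause was not tested. The MT1X change in glutamine-only against full medium, which was not called, turned from 0.12 to -0.07 without glutamine-only replicate B and -0.11 without full replicate A, and ranged from -0.11 to 0.31 when each library was left out. The replicate letters share only a letter: same-letter libraries of different media had correlations of their deviations from -0.16 to 0.32, 5 of 18 over 0.1, and 7 of 12 libraries correlated best with their own letter. With a replicate block the members called remained 4, 1, 0, 4, 3, 1 and 3 in number, and MT2A in deficient against full medium was 0.69 (adjusted p = 3.29e-07). Depth limits MT1F and MT1G, which could not be tested.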

Other observations

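The ratios between metallothionein transcripts were compared on reads, and none of the 4 tests passed after adjustment. MT1X had 3.83, 4.92 and 4.37 reads per 100 reads of MT2A in the deficient libraries and 2.02, 3.00 and 2.53 in the full libraries, with 1.77 to 2.64 in glucose-only and 2.64, 4.17 and 2.81 in glutamine-only medium. An exact two-sided permutation test of the log2 ratio, chosen after its values were seen, gave p = 0.1 for deficient against full, the smallest that 3 against 3 libraries allow, and p = 0.0182 for deficient against the other 9 libraries (adjusted p = 0.0727 over 4 such tests). MT1E had 23.7 to 24.2 reads per 100 reads of MT2A in deficient and 30.6 to 34.7 in glutamine-only medium, a difference that was not tested, and its exact permutation test gave p = 0.9 for deficient against full medium and p = 0.164 against the other 9 libraries (adjusted p = 0.9 and 0.218).

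Among 2743 tested genes with a mean normalized count of at least 50, those whose log2 values were most like MT2A over the 12 libraries were MED13 (Pearson r = 0.978), PLK2 (0.968), CDKN1A (0.966), SGMS2 (0.960) and FEM1C (0.960). The genes most like MTF1 were HNRNPC (0.877), ATP6V1C1 (0.876), GOLGB1 (0.854), NSUN2 (0.848) and RPL41 (0.848). Among the members r was 0.92 for MT2A with MT1X, 0.90 for MT1E with MT1X, 0.88 for MT2A with MT1E, and 0.71 to 0.81 for MTF1 with each metallothionein gene. These values describe 12 libraries in 4 media, share the scaling of each library and the high deficient medium, and carry no test.

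The 5 metallothionein members lie within 75.6 kb of chromosome 16. Of 12 other protein-coding genes within 500 kb, 9 were tested, and in deficient against full medium 1 rose and 2 fell, with a median log2 change of -0.47. The gene that rose was HERPUD1, of the response to unfolded proteins (2.28, adjusted p = 1.25e-14), which also rose in glutamine-only medium (2.28), and those that fell were NUDT21 (-1.32) and PSME3IP1 (-0.60). Within 200 kb of MTF1, 8 of 12 such genes were tested, and 5 rose and 1 fell, with a median of 0.52. Of all genes tested, 26.3% were called higher and 25.5% lower in this comparison. The neighbours of both loci were not counted with equal totals. The largest changes were a fall of CDCA8 (-2.16) and rises of YRDC (1.28) and FHL3 (1.23).

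Of 16 genes of copper handling 11 were tested, and in deficient against full medium 1 rose, 3 fell and 7 did not pass, with a median log2 change of -0.04. Of all genes, 26.3% were called higher and 25.5% lower in this comparison. SOD1, a copper and zinc enzyme, was higher by 0.46 (adjusted p = 0.0174), and COX11 (-1.03), STEAP2 (-0.81) and ATOX1 (-0.45) were lower. With equal totals 0 rose and 4 fell. Of 13 genes of the glucocorticoid list 10 were tested, and 5 rose and 1 fell in the same comparison, beside the same shares of all genes, with a median of 0.67. DUSP1 (4.01) and SGK1 (2.47) were higher and TSC22D3 (-1.38) was lower. With equal totals 5 rose and 3 fell, where 23.6% of all called genes were higher.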
